A study of Mus musculus with 6 samples.

Results

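The mitosis and spindle genes are 48 named genes of the G2 and M phases of the cell cycle, chosen by gene symbol from a listed set; replication genes were left out of that set. All 48 of 48 were measured, 47 under the platform's symbol and Sgol1 through its current symbol Sgo1, out of 19939 genes named on the array. They were read by 49 of the 23410 probe sets that carried at least 1 gene symbol, because Top2a had more than 1 probe set. The study sorted CD4+ CD44+ T cells by flow cytometry from draining lymph nodes of male Bcl6_RFP reporter mice, 8 to 10 weeks old, that had been given KLH in CFA, a protein antigen in complete Freund's adjuvant. Total RNA was hybridised to Affymetrix arrays, 1 per sample. All 3 groups carried the reporter and the immunisation, and they differed in the gate: Cxcr5-Bcl6- cells lacked the follicle-homing chemokine receptor Cxcr5 and the red fluorescence that reports Bcl6, Cxcr5+Bcl6- cells had Cxcr5 without that fluorescence, and Cxcr5+Bcl6+ cells had both. Each group had 2 arrays, 6 in all. The design calls them biological replicates; no source used here says whether each came from its own mouse or from pooled mice, so p-values measure the spread between these arrays. A reporter gate sorts on fluorescence and not on Bcl6 transcript, and the Cxcr5-Bcl6- gate defines cells by what they lack.

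A cell that enters mitosis activates Cdk1 with cyclins A and B, condenses its chromosomes, builds a bipolar spindle and holds anaphase back through the spindle checkpoint until every kinetochore is attached. Aurora and Polo-like kinases, kinesin motors and the chromosomal passenger complex carry out attachment, segregation and cytokinesis. Transcripts of these genes accumulate from late S phase to mitosis in cycling cells and are scarce in resting lymphocytes, which is why they are widely read as marks of proliferation in T cells. In activated CD4+ T cells, Bcl6 is the transcription factor that defines the follicular helper lineage, whose cells enter B cell follicles through Cxcr5.

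Many such promoters are known to hold a cell cycle genes homology region (CHR), bound by the MuvB complexes DREAM and B-Myb-MuvB-FoxM1, and CCAAT boxes, bound by NF-Y. The promoter of 1 gene per role is shown because these are the members with the smallest p of their role in Cxcr5+Bcl6- against Cxcr5-Bcl6- cells; Plk1 and Ccnb2 stand in for Aurkb and Ccna2, whose promoters were not listed. Sequences are RefSeq windows of GRCm38.p6, from 250 bases before to 50 bases after the annotated start, written 5′ to 3′ on the gene's strand. Capitals mark each CHR word (TTTGAA or TTCGAA and their reverse complements) and each CCAAT word or its reverse complement.
Bub1: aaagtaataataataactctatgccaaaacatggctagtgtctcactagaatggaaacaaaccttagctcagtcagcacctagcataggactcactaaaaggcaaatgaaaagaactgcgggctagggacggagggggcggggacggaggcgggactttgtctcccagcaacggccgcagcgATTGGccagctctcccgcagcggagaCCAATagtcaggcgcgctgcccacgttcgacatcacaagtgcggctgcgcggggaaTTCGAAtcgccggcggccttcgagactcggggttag
Cenpe: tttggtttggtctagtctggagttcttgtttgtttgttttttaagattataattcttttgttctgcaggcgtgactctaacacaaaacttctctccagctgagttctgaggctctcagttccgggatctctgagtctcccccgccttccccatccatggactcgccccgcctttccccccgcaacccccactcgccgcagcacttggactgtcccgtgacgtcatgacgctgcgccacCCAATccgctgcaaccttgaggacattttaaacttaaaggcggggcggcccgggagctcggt
Kif4: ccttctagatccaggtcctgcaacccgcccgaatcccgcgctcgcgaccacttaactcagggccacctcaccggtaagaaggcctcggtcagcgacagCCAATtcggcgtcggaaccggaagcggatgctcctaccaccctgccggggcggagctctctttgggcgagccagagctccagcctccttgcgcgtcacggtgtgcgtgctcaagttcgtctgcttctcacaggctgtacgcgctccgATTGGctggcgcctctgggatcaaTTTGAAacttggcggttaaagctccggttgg
Hmmr: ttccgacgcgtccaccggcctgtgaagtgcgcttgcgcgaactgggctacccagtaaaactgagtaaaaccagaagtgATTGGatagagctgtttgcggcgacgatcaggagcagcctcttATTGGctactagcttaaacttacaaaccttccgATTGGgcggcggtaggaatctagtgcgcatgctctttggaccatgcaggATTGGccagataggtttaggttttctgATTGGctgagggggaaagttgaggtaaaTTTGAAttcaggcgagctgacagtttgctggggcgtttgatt
Plk1: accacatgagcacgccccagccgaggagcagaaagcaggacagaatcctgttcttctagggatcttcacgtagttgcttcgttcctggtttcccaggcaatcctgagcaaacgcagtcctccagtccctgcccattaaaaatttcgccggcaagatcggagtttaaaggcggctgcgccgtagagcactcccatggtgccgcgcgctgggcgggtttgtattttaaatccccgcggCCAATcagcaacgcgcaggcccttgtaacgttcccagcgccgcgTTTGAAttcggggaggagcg
Ccnb2: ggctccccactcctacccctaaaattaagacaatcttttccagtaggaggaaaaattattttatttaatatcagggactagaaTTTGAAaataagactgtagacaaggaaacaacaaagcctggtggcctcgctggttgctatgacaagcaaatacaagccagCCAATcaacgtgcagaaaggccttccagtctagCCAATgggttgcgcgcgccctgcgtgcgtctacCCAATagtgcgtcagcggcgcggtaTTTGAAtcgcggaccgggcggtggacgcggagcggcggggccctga
Mki67: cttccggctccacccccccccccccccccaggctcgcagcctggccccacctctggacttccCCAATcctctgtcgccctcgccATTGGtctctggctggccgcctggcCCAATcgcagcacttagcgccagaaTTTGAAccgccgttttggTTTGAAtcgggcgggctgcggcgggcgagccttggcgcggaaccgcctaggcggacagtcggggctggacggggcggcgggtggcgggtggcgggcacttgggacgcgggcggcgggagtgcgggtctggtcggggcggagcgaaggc

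These windows are chr2:127831810-127832109 on the minus strand for Bub1, chr3:135212313-135212612 on the plus strand for Cenpe, chrX:100625815-100626114 on the plus strand for Kif4, chr11:40733388-40733687 on the minus strand for Hmmr, chr7:122159185-122159484 on the plus strand for Plk1, chr9:70421505-70421804 on the minus strand for Ccnb2 and chr7:135716330-135716629 on the minus strand for Mki67. Counting the annotated start as base 1, the CHR word began at base 15 in Bub1, 20 in Kif4, 9 in Hmmr and 31 in Plk1. Ccnb2 had CHR words at base 5 and 167 bases before the start. Mki67 had them 116 and 98 bases before the start, and the Cenpe window held CCAAT once and no CHR word. Hmmr held 5 CCAAT words, the most of these 7 promoters.

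The same words were searched on both strands in all 32851 windows of the table, which cover 27025 genes. Of the 48 members, 41 were listed, with 46 windows; Aurkb, Ccna2, Foxm1, Incenp, Kif20a, Smc4 and Tpx2 were not. A CHR word lay in the window of 32 of 41 members (78.0%), against 19.2% of all windows and 21.7% of all genes listed. Within 60 bases before to 40 bases after the start it lay in 28 of 41 (68.3%), against 5.44% of windows and 6.3% of genes. CCAAT was found in 29 of 41 members (70.7%), against 37.4% of windows and 41.1% of genes, and at least 2 CCAAT words in 20 of 41 (48.8%), against 11.7% and 13.3%. CHR and CCAAT occurred together in 27 of 41 members (65.9%), against 7.52% of windows and 8.61% of genes. An E2F-like word, GCGGGAA or its reverse complement, was found in Cenpk, Ncapg and Plk4 (7.32% of members, 4.6% of windows, 5.29% of genes). None of the 3 words was in the windows of Birc5, Kif18a, Mad2l1, Melk, Nuf2 and Nusap1, and 1 pair of matches of different words overlapped among all member windows. These matches describe letters and not bound sites. The 32 members with a CHR word had a median log2 change of 1.18 in Cxcr5+Bcl6- against Cxcr5-Bcl6- cells and the 9 without had 1.09. In Cxcr5+Bcl6+ against Cxcr5-Bcl6- cells these medians were 0.78 and 0.63. In Cxcr5+Bcl6+ against Cxcr5+Bcl6- cells they were -0.44 and -0.46. Whether members with and without the word differ was not tested.

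**Figure D1:**
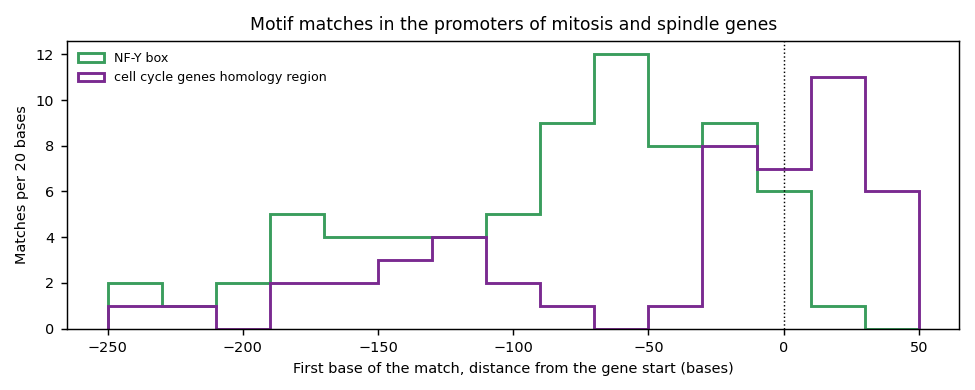
Positions of CHR and NF-Y (CCAAT) words in the 46 promoter windows of 41 mitosis and spindle genes, counted per 20 bases; the x axis gives the distance of a match's first base from the annotated start, and genes with several windows can count more than once. In 28 of the 41 genes a CHR word lies within 60 bases before to 40 bases after the start, and CCAAT words lie mostly upstream.

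The members were well measured on these arrays. Levels are log2 values after robust multi-array averaging (RMA), and a level is compared only with the same probe set on other arrays. The mean level over the 6 arrays ran from 7.73 (Cenpk) to 11.98 (Smc4), and 47 of 48 members were at or above 8.04, the median of all probe sets tested; Cenpk was below it. As a reference for low signal, 1207 olfactory, vomeronasal and trace-amine receptor genes had a median level of 5.80. No member fell under that reference on any array, and the lowest single member value was 7.10.

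Nearly all members were lowest in Cxcr5-Bcl6- cells, intermediate in Cxcr5+Bcl6+ cells and highest in Cxcr5+Bcl6- cells. The mean was highest in Cxcr5+Bcl6- cells for 46 of 48 members and lowest in Cxcr5-Bcl6- cells for 47 of 48. How many of all probe sets had the same highest or lowest group was not counted. Relative to each gene's mean over 6 arrays, the median member stood at -0.58 and -0.69 log2 in the Cxcr5-Bcl6- arrays, 0.04 and 0.15 in the Cxcr5+Bcl6+ arrays and 0.55 and 0.51 in the Cxcr5+Bcl6- arrays. For 40 members the arrays of each group lay clear of the next group in that order, which 1.64% of all probe sets tested did. All 3 differences passed an adjusted p of 0.05 for 31 members, against 0.423% of all probe sets. The median difference between the 2 arrays of a group was smaller. Over members it was -0.13, 0.09 and -0.08 log2 (second minus first) in Cxcr5-Bcl6-, Cxcr5+Bcl6+ and Cxcr5+Bcl6- cells, against 0.03, 0.02 and -0.006 over all probe sets. The largest were 0.38 for Ncapg, 0.36 for Cenpk and 0.29 for Anln, above some members' difference between the Cxcr5+ groups. Members moved together between arrays: in these groups the second array was lower for 37, higher for 34 and lower for 36 of 48. Counts of members are therefore not counts of independent readings. In bulk RNA, a lower share of cycling cells and less of a transcript per cycling cell cannot be told apart.

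**Figure D2:**
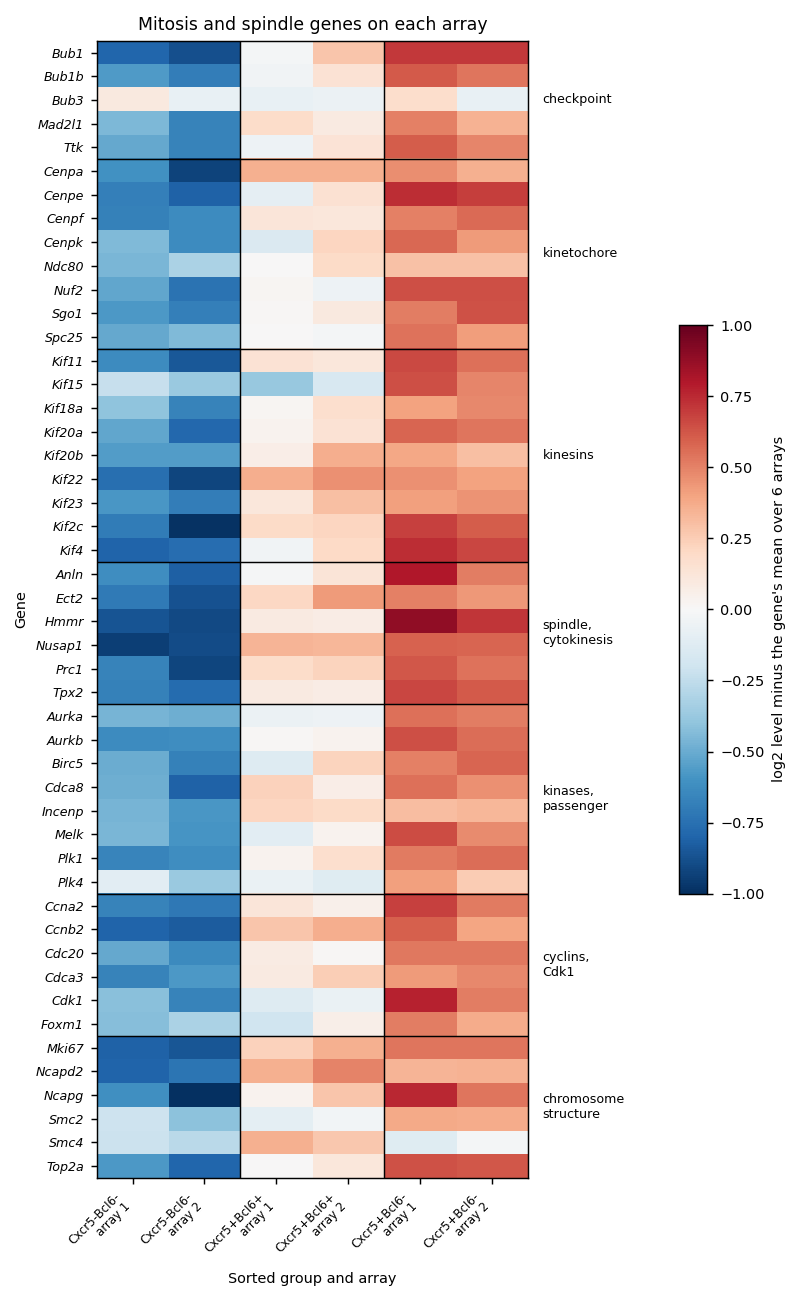
Log2 level of each of the 48 genes on each of the 6 arrays, minus that gene's mean over the 6 arrays, with genes grouped by role; red is above the gene's mean and blue below it. Both Cxcr5-Bcl6- columns are blue for nearly all genes and both Cxcr5+Bcl6- columns red, with Bub3 and Smc4 as the genes that differ most from this pattern.

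In Cxcr5+Bcl6- against Cxcr5-Bcl6- cells, 46 of 48 members were higher in Cxcr5+Bcl6- cells and 0 were lower, where 5.22% of all probe sets tested were higher and 5.93% were lower. Among probe sets at or above the median level, 9.15% were higher. The test was limma's moderated test on the log2 levels with Benjamini-Hochberg adjustment over all 23410 probe sets, and a change passed at an adjusted p under 0.05. The median member was 1.18 log2 higher (2.26-fold), with quartiles of 1.0 and 1.33, while the median of all probe sets was -0.03. At least 2-fold higher were 36 members, against 0.525% of all probe sets. In 47 members both Cxcr5+Bcl6- arrays were above both Cxcr5-Bcl6- arrays, against 19.3% of probe sets. Bub3 and Smc4 did not pass.

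In Cxcr5+Bcl6+ against Cxcr5-Bcl6- cells, 44 of 48 members were higher in Cxcr5+Bcl6+ cells and 0 were lower, against 17.6% and 17.7% of all probe sets and 21.3% higher among probe sets at or above the median level. The median member was 0.74 log2 higher (1.68-fold), and the median of all probe sets was 0.04. The low-level receptor genes read 0.22 log2 higher in Cxcr5+Bcl6+ cells at the median, with 419 of 1207 called higher and 1 lower, and their part in the members' difference was not tested. At least 2-fold higher were 8 members, against 1.47% of probe sets: Cenpa, Kif22, Kif2c, Nusap1, Ect2, Ccnb2, Mki67 and Ncapd2. The groups did not overlap for 45 members, against 34.4% of probe sets. Bub3, Kif15, Plk4 and Smc2 did not pass. The 3 comparisons share arrays and are given side by side.

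In Cxcr5+Bcl6+ against Cxcr5+Bcl6- cells, whose gates differ in the Bcl6 reporter, 34 of 48 members were lower in Cxcr5+Bcl6+ cells, 1 (Smc4) was higher and 13 did not pass. When a change of at least 1.5-fold was also required, 10 were lower and 0 higher. With that requirement 1952 of the 23410 probe sets were called, both directions together. Without it, 13.0% of all probe sets were lower and 13.4% higher, and among those at or above the median level 23.6% were lower. The median change of the members was -0.46 log2 and single members ran from -0.83 to 0.38, with a median of 0.05 over all probe sets. In 42 members both Cxcr5+Bcl6+ arrays were below both Cxcr5+Bcl6- arrays, against 26.4% of probe sets, and in 2 (Smc4 and Ncapd2) above, against 39.4%. The Cxcr5+Bcl6+ arrays had a narrower spread of levels over all rows (interquartile range 2.86 and 2.97) than the Cxcr5+Bcl6- arrays (3.13 and 3.11), and the low-level receptor genes read 0.30 log2 higher in Cxcr5+Bcl6+ cells at the median. Of these receptor genes, 567 of 1207 were called higher and 0 lower. The part of these shifts in the members' difference was not tested. With each array centred on its median, 38 members were lower and 1 higher, and with renewed quantile normalisation 32 and 1. Neither setting removed the shift of the receptor genes, which still read 0.22 and 0.2 log2 higher in Cxcr5+Bcl6+ cells. That centring moved the share of all calls that were higher from 50.8% to 35.0%, and the renewed normalisation moved it to 49.1%. Over all probe sets, 5933 were called with centring and 5844 with renewed normalisation, against 6185 in the main fit. The standard error of a member's change lay between 0.0852 and 0.135 log2. The count of lower members was 24 without Cxcr5+Bcl6+ replicate 1.

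**Figure D3:**
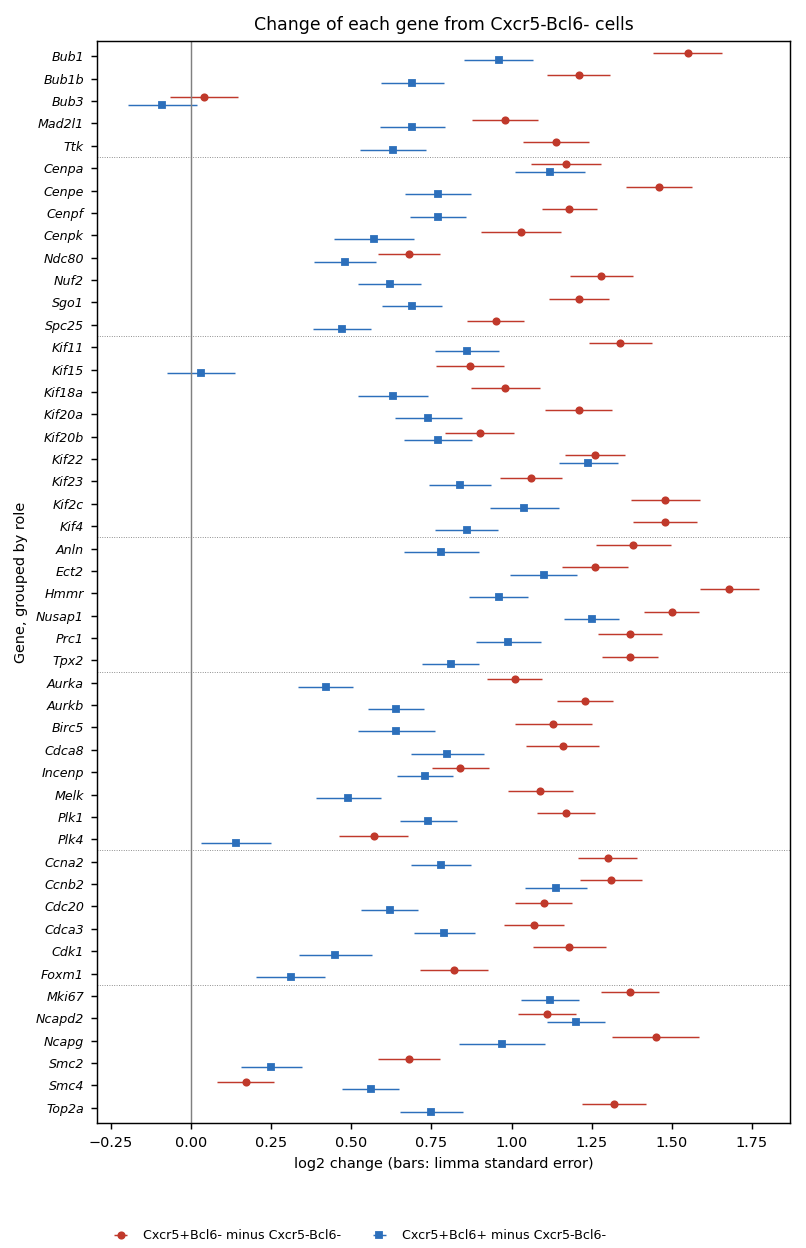
Log2 change of each gene from Cxcr5-Bcl6- cells to Cxcr5+Bcl6- cells (red circles) and to Cxcr5+Bcl6+ cells (blue squares), with bars for limma's standard error over 2 arrays a group; dotted lines separate roles. The red points lie to the right of the blue ones for all but Smc4 and Ncapd2, and both of Bub3 lie near 0.

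The checkpoint genes delay anaphase while kinetochores are unattached. Of 5, 4 were higher in both Cxcr5+ groups than among Cxcr5-Bcl6- cells and 3 were lower in Cxcr5+Bcl6+ than among Cxcr5+Bcl6- cells. Bub1, a kinetochore kinase that recruits other checkpoint proteins, had log2 levels of 8.37 and 8.28 in Cxcr5-Bcl6-, 9.14 and 9.44 in Cxcr5+Bcl6+ and 9.87 and 9.87 in Cxcr5+Bcl6- cells. The 3 groups did not overlap. Bub1 had a log2 change (SE 0.107) of 1.55 in Cxcr5+Bcl6- against Cxcr5-Bcl6- cells (adjusted p = 7.02e-06), of 0.96 in Cxcr5+Bcl6+ against Cxcr5-Bcl6- cells (adjusted p = 2.84e-05) and of -0.59 in Cxcr5+Bcl6+ against Cxcr5+Bcl6- cells (adjusted p = 0.00192). Bub1b, which encodes BubR1, a part of the complex that inhibits Cdc20, read 8.83 and 8.7 in Cxcr5-Bcl6-, 9.36 and 9.54 in Cxcr5+Bcl6+ and 10.01 and 9.93 in Cxcr5+Bcl6- cells. The groups again stood apart in the same order. Bub1b had a log2 change (SE 0.0988) of 1.21 in Cxcr5+Bcl6- against Cxcr5-Bcl6- cells (adjusted p = 1.81e-05), of 0.69 in Cxcr5+Bcl6+ against Cxcr5-Bcl6- cells (adjusted p = 0.000192) and of -0.52 in Cxcr5+Bcl6+ against Cxcr5+Bcl6- cells (adjusted p = 0.00251).

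Ttk, the Mps1 kinase that starts checkpoint signalling, read 7.65 and 7.49 in Cxcr5-Bcl6-, 8.11 and 8.3 in Cxcr5+Bcl6+ and 8.77 and 8.65 in Cxcr5+Bcl6- cells. It followed the same order without overlap, with changes of 1.14 and 0.63 log2 from Cxcr5-Bcl6- cells and -0.51 between the Cxcr5+ groups (adjusted p = 0.00352). Mad2l1, which encodes Mad2, the direct partner of Cdc20 in the checkpoint, read 10.44 and 10.22 in Cxcr5-Bcl6-, 11.07 and 10.98 in Cxcr5+Bcl6+ and 11.39 and 11.24 in Cxcr5+Bcl6- cells. Its levels in the Cxcr5+ groups did not overlap, but the difference of -0.29 log2 did not pass (adjusted p = 0.0584). It passed with each array centred on its median (-0.36, adjusted p = 0.0243) and not with renewed quantile normalisation. Bub3, the adaptor that binds Bub1 and BubR1 and also acts outside mitosis, read 11.29 and 11.12 in Cxcr5-Bcl6-, 11.12 and 11.13 in Cxcr5+Bcl6+ and 11.37 and 11.12 in Cxcr5+Bcl6- cells. Its 3 groups overlapped, and the log2 changes were 0.04, -0.09 and -0.12 (adjusted p = 0.913, 0.59 and 0.433).

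The kinetochore and centromere genes build the structure that links chromosomes to microtubules. All 8 were higher in both Cxcr5+ groups than among Cxcr5-Bcl6- cells, and 6 were lower in Cxcr5+Bcl6+ than among Cxcr5+Bcl6- cells. Cenpe, a kinetochore motor that moves chromosomes to the spindle equator, had log2 levels of 7.86 and 7.73 in Cxcr5-Bcl6-, 8.45 and 8.69 in Cxcr5+Bcl6+ and 9.28 and 9.23 in Cxcr5+Bcl6- cells. Its groups did not overlap. Cenpe had a log2 change (SE 0.103) of 1.46 in Cxcr5+Bcl6- against Cxcr5-Bcl6- cells (adjusted p = 8.19e-06), of 0.77 in Cxcr5+Bcl6+ against Cxcr5-Bcl6- cells (adjusted p = 0.000109) and of -0.68 in Cxcr5+Bcl6+ against Cxcr5+Bcl6- cells (adjusted p = 0.000542). Cenpf, a large protein of the outer kinetochore, read 7.72 and 7.77 in Cxcr5-Bcl6-, 8.52 and 8.51 in Cxcr5+Bcl6+ and 8.9 and 8.96 in Cxcr5+Bcl6- cells. It kept the same order. Cenpf had a log2 change (SE 0.0863) of 1.18 in Cxcr5+Bcl6- against Cxcr5-Bcl6- cells (adjusted p = 8.87e-06), of 0.77 in Cxcr5+Bcl6+ against Cxcr5-Bcl6- cells (adjusted p = 2.91e-05) and of -0.41 in Cxcr5+Bcl6+ against Cxcr5+Bcl6- cells (adjusted p = 0.00427).

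Cenpa, the histone H3 variant that marks centromeres, read 10.33 and 10.01 in Cxcr5-Bcl6-, 11.29 and 11.29 in Cxcr5+Bcl6+ and 11.4 and 11.29 in Cxcr5+Bcl6- cells. The 2 Cxcr5+ groups overlapped and lay clear of Cxcr5-Bcl6- cells, with log2 changes of 1.17 and 1.12 (adjusted p = 4.6e-05 and 1.04e-05) against -0.05 between the Cxcr5+ groups (adjusted p = 0.774). Nuf2, a subunit of the Ndc80 complex that grips microtubules, read 8.02 and 7.8 in Cxcr5-Bcl6-, 8.56 and 8.49 in Cxcr5+Bcl6+ and 9.19 and 9.19 in Cxcr5+Bcl6- cells. It rose by 1.28 and 0.62 log2 from Cxcr5-Bcl6- cells, and its difference of -0.66 between the Cxcr5+ groups was the second largest fall of this role (adjusted p = 0.000503). Ndc80, the subunit that names the complex, read 9.0 and 9.14 in Cxcr5-Bcl6-, 9.46 and 9.65 in Cxcr5+Bcl6+ and 9.75 and 9.75 in Cxcr5+Bcl6- cells. It passed against Cxcr5-Bcl6- cells (0.68 and 0.48 log2) and not between the Cxcr5+ groups (-0.2, adjusted p = 0.171), though these did not overlap.

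Spc25, another subunit of that complex, read 7.99 and 8.06 in Cxcr5-Bcl6-, 8.5 and 8.48 in Cxcr5+Bcl6+ and 9.04 and 8.92 in Cxcr5+Bcl6- cells. The groups stood apart, with -0.49 log2 between the Cxcr5+ groups (adjusted p = 0.00203). Sgo1 (listed as Sgol1), the shugoshin that protects centromeric cohesion, read 8.33 and 8.22 in Cxcr5-Bcl6-, 8.92 and 9.0 in Cxcr5+Bcl6+ and 9.42 and 9.54 in Cxcr5+Bcl6- cells. It was also in order without overlap, with -0.52 log2 between the Cxcr5+ groups (adjusted p = 0.00165). Cenpk, an inner kinetochore protein and the member with the lowest levels, read 7.28 and 7.1 in Cxcr5-Bcl6-, 7.58 and 7.94 in Cxcr5+Bcl6+ and 8.3 and 8.15 in Cxcr5+Bcl6- cells. Its difference of -0.46 log2 between the Cxcr5+ groups (adjusted p = 0.0172) was -0.28 without Cxcr5+Bcl6+ replicate 1 (adjusted p = 0.146) and -0.39 without Cxcr5+Bcl6- replicate 1 (adjusted p = 0.107). That of Cenpf was -0.39 without Cxcr5+Bcl6- replicate 2 (adjusted p = 0.0596).

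The kinesins are microtubule motors of the spindle and midzone. All 9 were higher in Cxcr5+Bcl6- than among Cxcr5-Bcl6- cells, 8 were higher in Cxcr5+Bcl6+ than among Cxcr5-Bcl6- cells, and 6 were lower in Cxcr5+Bcl6+ than among Cxcr5+Bcl6- cells. Kif4, a chromosome-bound motor that also organises the midzone, had log2 levels of 7.47 and 7.51 in Cxcr5-Bcl6-, 8.24 and 8.47 in Cxcr5+Bcl6+ and 9.01 and 8.94 in Cxcr5+Bcl6- cells. The groups did not overlap. Kif4 had a log2 change (SE 0.0993) of 1.48 in Cxcr5+Bcl6- against Cxcr5-Bcl6- cells (adjusted p = 5.97e-06), of 0.86 in Cxcr5+Bcl6+ against Cxcr5-Bcl6- cells (adjusted p = 3.58e-05) and of -0.62 in Cxcr5+Bcl6+ against Cxcr5+Bcl6- cells (adjusted p = 0.000812). Kif22, a chromosome-arm motor that pushes chromosomes towards the spindle equator, read 8.01 and 7.85 in Cxcr5-Bcl6-, 9.13 and 9.22 in Cxcr5+Bcl6+ and 9.22 and 9.17 in Cxcr5+Bcl6- cells. Its Cxcr5+ groups overlapped at a level above Cxcr5-Bcl6- cells. Kif22 had a log2 change (SE 0.0932) of 1.26 in Cxcr5+Bcl6- against Cxcr5-Bcl6- cells (adjusted p = 9.26e-06), of 1.24 in Cxcr5+Bcl6+ against Cxcr5-Bcl6- cells (adjusted p = 1.33e-06) and of -0.02 in Cxcr5+Bcl6+ against Cxcr5+Bcl6- cells (adjusted p = 0.893).

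Kif15, a motor that helps to keep spindle poles apart, read 9.64 and 9.5 in Cxcr5-Bcl6-, 9.49 and 9.71 in Cxcr5+Bcl6+ and 10.51 and 10.36 in Cxcr5+Bcl6- cells. Here Cxcr5+Bcl6+ and Cxcr5-Bcl6- cells overlapped and Cxcr5+Bcl6- cells stood alone above both. Kif15 had a log2 change (SE 0.106) of 0.87 in Cxcr5+Bcl6- against Cxcr5-Bcl6- cells (adjusted p = 0.000286), of 0.03 in Cxcr5+Bcl6+ against Cxcr5-Bcl6- cells (adjusted p = 0.842) and of -0.83 in Cxcr5+Bcl6+ against Cxcr5+Bcl6- cells (adjusted p = 0.000154). This was the largest fall of any member between the Cxcr5+ groups, 1.78-fold. Kif11, the main motor of pole separation, read 9.77 and 9.55 in Cxcr5-Bcl6-, 10.54 and 10.51 in Cxcr5+Bcl6+ and 11.06 and 10.95 in Cxcr5+Bcl6- cells. Its groups were in the common order, with 1.34 and 0.86 log2 from Cxcr5-Bcl6- cells and -0.48 between the Cxcr5+ groups (adjusted p = 0.00413). Kif2c, a microtubule depolymerase at centromeres, read 8.21 and 7.92 in Cxcr5-Bcl6-, 9.1 and 9.12 in Cxcr5+Bcl6+ and 9.59 and 9.51 in Cxcr5+Bcl6- cells. It rose by 1.48 and 1.04 log2 from Cxcr5-Bcl6- cells and was -0.44 between the Cxcr5+ groups (adjusted p = 0.0107).

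Kif20a, a midzone motor needed for cytokinesis, read 8.87 and 8.61 in Cxcr5-Bcl6-, 9.43 and 9.54 in Cxcr5+Bcl6+ and 9.97 and 9.93 in Cxcr5+Bcl6- cells. Kif18a, which damps chromosome oscillation, read 7.96 and 7.69 in Cxcr5-Bcl6-, 8.38 and 8.53 in Cxcr5+Bcl6+ and 8.76 and 8.84 in Cxcr5+Bcl6- cells. The groups of both genes stood apart, with -0.47 log2 for Kif20a (adjusted p = 0.00635) and -0.35 for Kif18a (adjusted p = 0.0347) between the Cxcr5+ groups. Kif23, a subunit of the centralspindlin complex of the midzone, read 9.3 and 9.19 in Cxcr5-Bcl6-, 9.99 and 10.18 in Cxcr5+Bcl6+ and 10.29 and 10.33 in Cxcr5+Bcl6- cells. Its Cxcr5+ groups did not overlap, yet the difference of -0.23 log2 did not pass (adjusted p = 0.112). Centred on array medians it did (-0.30, adjusted p = 0.0488), and it passed in no other alternative. Kif20b, a midzone motor, overlapped between the Cxcr5+ groups (-0.13 log2, adjusted p = 0.416) and was 0.9 and 0.77 log2 higher than among Cxcr5-Bcl6- cells.

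Some kinesin calls between the Cxcr5+ groups ended when 1 array was left out. Kif20a was -0.41 log2 without Cxcr5+Bcl6+ replicate 1 (adjusted p = 0.0569). Kif2c was -0.42 without Cxcr5+Bcl6+ replicate 1 (adjusted p = 0.0652), -0.45 without Cxcr5+Bcl6+ replicate 2 (adjusted p = 0.0508) and -0.39 without Cxcr5+Bcl6- replicate 1 (adjusted p = 0.0786). Kif18a was -0.27 without Cxcr5+Bcl6+ replicate 1 (adjusted p = 0.193), -0.42 without Cxcr5+Bcl6+ replicate 2 (adjusted p = 0.0548), -0.39 without Cxcr5+Bcl6- replicate 1 (adjusted p = 0.0878) and -0.31 without Cxcr5+Bcl6- replicate 2 (adjusted p = 0.182); with the replicate block its adjusted p was 0.0502.

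The spindle assembly and cytokinesis genes had the highest median change of the 7 roles from Cxcr5-Bcl6- cells, 1.37 log2 to Cxcr5+Bcl6- and 0.98 to Cxcr5+Bcl6+ cells, and all 6 were higher in both. Hmmr, a spindle pole protein that also binds hyaluronan, had log2 levels of 7.26 and 7.22 in Cxcr5-Bcl6-, 8.21 and 8.2 in Cxcr5+Bcl6+ and 9.01 and 8.84 in Cxcr5+Bcl6- cells. The groups did not overlap, and Hmmr had the largest change of any member in Cxcr5+Bcl6- against Cxcr5-Bcl6- cells, 3.21-fold. Hmmr had a log2 change (SE 0.0921) of 1.68 in Cxcr5+Bcl6- against Cxcr5-Bcl6- cells (adjusted p = 1.34e-06), of 0.96 in Cxcr5+Bcl6+ against Cxcr5-Bcl6- cells (adjusted p = 8.24e-06) and of -0.72 in Cxcr5+Bcl6+ against Cxcr5+Bcl6- cells (adjusted p = 0.000168). Nusap1, which bundles spindle microtubules near chromosomes, read 9.16 and 9.21 in Cxcr5-Bcl6-, 10.44 and 10.43 in Cxcr5+Bcl6+ and 10.69 and 10.68 in Cxcr5+Bcl6- cells. It had the largest change of any member in Cxcr5+Bcl6+ against Cxcr5-Bcl6- cells, 2.38-fold. Nusap1 had a log2 change (SE 0.0853) of 1.5 in Cxcr5+Bcl6- against Cxcr5-Bcl6- cells (adjusted p = 1.8e-06), of 1.25 in Cxcr5+Bcl6+ against Cxcr5-Bcl6- cells (adjusted p = 6.43e-07) and of -0.25 in Cxcr5+Bcl6+ against Cxcr5+Bcl6- cells (adjusted p = 0.0518). The last of these passed with each array centred on its median (-0.32, adjusted p = 0.0167) and not with renewed quantile normalisation.

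Tpx2, the activator of Aurora A at the spindle, read 8.72 and 8.62 in Cxcr5-Bcl6-, 9.48 and 9.47 in Cxcr5+Bcl6+ and 10.06 and 10.01 in Cxcr5+Bcl6- cells. Its groups stood apart, with 1.37 and 0.81 log2 from Cxcr5-Bcl6- cells and -0.56 between the Cxcr5+ groups (adjusted p = 0.000756). Anln, anillin, the scaffold of the contractile ring, read 7.9 and 7.7 in Cxcr5-Bcl6-, 8.51 and 8.65 in Cxcr5+Bcl6+ and 9.32 and 9.03 in Cxcr5+Bcl6- cells. It had the same order, with -0.59 log2 between the Cxcr5+ groups (adjusted p = 0.00301). Prc1, which crosslinks midzone microtubules, read 8.24 and 7.99 in Cxcr5-Bcl6-, 9.09 and 9.13 in Cxcr5+Bcl6+ and 9.53 and 9.45 in Cxcr5+Bcl6- cells. Its difference of -0.38 log2 between the Cxcr5+ groups (adjusted p = 0.0172) did not pass without any 1 of the 4 arrays compared: -0.36 and -0.40 without Cxcr5+Bcl6+ replicate 1 and 2 (adjusted p = 0.0862 and 0.0591), and -0.34 and -0.42 without Cxcr5+Bcl6- replicate 1 and 2 (adjusted p = 0.131 and 0.0526).

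Ect2, the exchange factor that activates RhoA at the cleavage furrow, read 9.15 and 8.98 in Cxcr5-Bcl6-, 10.06 and 10.28 in Cxcr5+Bcl6+ and 10.36 and 10.29 in Cxcr5+Bcl6- cells. It rose by 1.26 and 1.1 log2 from Cxcr5-Bcl6- cells. Its Cxcr5+ groups lay close together without overlap, and the difference of -0.16 log2 did not pass (adjusted p = 0.291).

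The mitotic kinases and the chromosomal passenger complex control entry into mitosis and error correction at kinetochores. All 8 were higher in Cxcr5+Bcl6- than among Cxcr5-Bcl6- cells, 7 were higher in Cxcr5+Bcl6+ than among Cxcr5-Bcl6- cells and 7 were lower in Cxcr5+Bcl6+ than among Cxcr5+Bcl6- cells. Aurkb, Aurora B, the kinase of the passenger complex, had log2 levels of 10.03 and 10.04 in Cxcr5-Bcl6-, 10.67 and 10.69 in Cxcr5+Bcl6+ and 11.3 and 11.22 in Cxcr5+Bcl6- cells. Its groups did not overlap. Aurkb had a log2 change (SE 0.0868) of 1.23 in Cxcr5+Bcl6- against Cxcr5-Bcl6- cells (adjusted p = 8.19e-06), of 0.64 in Cxcr5+Bcl6+ against Cxcr5-Bcl6- cells (adjusted p = 0.00012) and of -0.58 in Cxcr5+Bcl6+ against Cxcr5+Bcl6- cells (adjusted p = 0.000515). Plk1, the Polo-like kinase of mitotic entry and spindle assembly, read 9.77 and 9.81 in Cxcr5-Bcl6-, 10.47 and 10.6 in Cxcr5+Bcl6+ and 10.95 and 10.99 in Cxcr5+Bcl6- cells. It had the same order. Plk1 had a log2 change (SE 0.0892) of 1.17 in Cxcr5+Bcl6- against Cxcr5-Bcl6- cells (adjusted p = 1.06e-05), of 0.74 in Cxcr5+Bcl6+ against Cxcr5-Bcl6- cells (adjusted p = 4.97e-05) and of -0.43 in Cxcr5+Bcl6+ against Cxcr5+Bcl6- cells (adjusted p = 0.0041).

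Aurka, Aurora A, the kinase of centrosomes and spindle poles, read 8.79 and 8.77 in Cxcr5-Bcl6-, 9.2 and 9.21 in Cxcr5+Bcl6+ and 9.81 and 9.77 in Cxcr5+Bcl6- cells. Its arrays agreed closely within each group, and it had the smallest p of this role between the Cxcr5+ groups (-0.59 log2, adjusted p = 0.000401). Melk, a kinase whose transcript rises with proliferation, read 8.45 and 8.32 in Cxcr5-Bcl6-, 8.8 and 8.94 in Cxcr5+Bcl6+ and 9.56 and 9.38 in Cxcr5+Bcl6- cells. It also fell between the Cxcr5+ groups (-0.6 log2, adjusted p = 0.00116). Incenp, the scaffold of the passenger complex, read 8.92 and 8.8 in Cxcr5-Bcl6-, 9.6 and 9.57 in Cxcr5+Bcl6+ and 9.69 and 9.71 in Cxcr5+Bcl6- cells. Unlike Aurkb, the Cxcr5+ groups did not differ past the threshold (-0.11 log2, adjusted p = 0.397); whether the 2 genes' differences differ was not tested.

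Birc5, survivin, and Cdca8, borealin, are the other passenger subunits. Birc5 read 8.39 and 8.21 in Cxcr5-Bcl6-, 8.76 and 9.11 in Cxcr5+Bcl6+ and 9.39 and 9.47 in Cxcr5+Bcl6- cells. Cdca8 read 8.9 and 8.58 in Cxcr5-Bcl6-, 9.62 and 9.46 in Cxcr5+Bcl6+ and 9.94 and 9.85 in Cxcr5+Bcl6- cells. Both stood apart in the common order, with -0.5 log2 for Birc5 (adjusted p = 0.0102) and -0.36 for Cdca8 (adjusted p = 0.0397) between the Cxcr5+ groups. Plk4, the kinase of centriole duplication, read 9.81 and 9.55 in Cxcr5-Bcl6-, 9.85 and 9.8 in Cxcr5+Bcl6+ and 10.33 and 10.17 in Cxcr5+Bcl6- cells. Its Cxcr5+Bcl6+ and Cxcr5-Bcl6- levels overlapped (0.14 log2, adjusted p = 0.352), and Cxcr5+Bcl6- cells were higher than Cxcr5-Bcl6- cells (0.57 log2, adjusted p = 0.00532) and than Cxcr5+Bcl6+ cells (the change was -0.43 log2, adjusted p = 0.0127).

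Calls of these last 3 genes ended when some single arrays were left out. Between the Cxcr5+ groups Birc5 was -0.32 log2 without Cxcr5+Bcl6+ replicate 1 (adjusted p = 0.0899) and -0.45 without Cxcr5+Bcl6- replicate 2 (adjusted p = 0.0506). Cdca8 was -0.44 and -0.27 without Cxcr5+Bcl6+ replicate 1 and 2 (adjusted p = 0.0646 and 0.196), and -0.31 and -0.40 without Cxcr5+Bcl6- replicate 1 and 2 (adjusted p = 0.199 and 0.0799); with renewed quantile normalisation it was -0.29 (adjusted p = 0.107). Plk4 was -0.45 and -0.40 without Cxcr5+Bcl6+ replicate 1 and 2 (adjusted p = 0.0553 and 0.0732) and -0.35 without Cxcr5+Bcl6- replicate 1 (adjusted p = 0.125). Its change from Cxcr5-Bcl6- to Cxcr5+Bcl6- cells was 0.49 without Cxcr5+Bcl6- replicate 1 (adjusted p = 0.0532).

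The cyclins, Cdk1, Cdc20 and Foxm1 drive mitotic entry and exit. All 6 genes of this role were higher in both Cxcr5+ groups than among Cxcr5-Bcl6- cells, and 5 were lower in Cxcr5+Bcl6+ than among Cxcr5+Bcl6- cells. Ccna2, cyclin A2, the partner of Cdk2 and Cdk1 through S and G2, had log2 levels of 10.53 and 10.48 in Cxcr5-Bcl6-, 11.32 and 11.25 in Cxcr5+Bcl6+ and 11.88 and 11.72 in Cxcr5+Bcl6- cells. Its groups did not overlap. Ccna2 had a log2 change (SE 0.0925) of 1.3 in Cxcr5+Bcl6- against Cxcr5-Bcl6- cells (adjusted p = 8.29e-06), of 0.78 in Cxcr5+Bcl6+ against Cxcr5-Bcl6- cells (adjusted p = 4.6e-05) and of -0.52 in Cxcr5+Bcl6+ against Cxcr5+Bcl6- cells (adjusted p = 0.00165). Ccnb2, cyclin B2, a partner of Cdk1 in mitosis, read 10.56 and 10.53 in Cxcr5-Bcl6-, 11.64 and 11.73 in Cxcr5+Bcl6+ and 11.96 and 11.76 in Cxcr5+Bcl6- cells. Cxcr5+Bcl6+ and Cxcr5+Bcl6- cells lay close, and the second Cxcr5+Bcl6- array was just above the Cxcr5+Bcl6+ arrays. Ccnb2 had a log2 change (SE 0.0969) of 1.31 in Cxcr5+Bcl6- against Cxcr5-Bcl6- cells (adjusted p = 9.26e-06), of 1.14 in Cxcr5+Bcl6+ against Cxcr5-Bcl6- cells (adjusted p = 3.35e-06) and of -0.18 in Cxcr5+Bcl6+ against Cxcr5+Bcl6- cells (adjusted p = 0.214).

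Cdk1, the kinase that triggers mitosis, read 10.44 and 10.19 in Cxcr5-Bcl6-, 10.73 and 10.79 in Cxcr5+Bcl6+ and 11.63 and 11.37 in Cxcr5+Bcl6- cells. It fell more than any other gene of this role between the Cxcr5+ groups (-0.74 log2, adjusted p = 0.000657), and it rose by 1.18 and 0.45 log2 from Cxcr5-Bcl6- cells. Cdc20, the activator of the anaphase-promoting complex, read 9.03 and 8.91 in Cxcr5-Bcl6-, 9.63 and 9.56 in Cxcr5+Bcl6+ and 10.07 and 10.07 in Cxcr5+Bcl6- cells. Its groups stood apart, with -0.48 log2 between the Cxcr5+ groups (adjusted p = 0.00222). Cdca3, an F-box-like protein linked to degradation of the Cdk1 inhibitor Wee1, read 8.64 and 8.74 in Cxcr5-Bcl6-, 9.4 and 9.56 in Cxcr5+Bcl6+ and 9.74 and 9.79 in Cxcr5+Bcl6- cells. Its difference of -0.28 log2 (adjusted p = 0.0463) was the one nearest the threshold among the 34 members lower in Cxcr5+Bcl6+ cells.

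Foxm1, the transcription factor of G2 and M genes, read 8.71 and 8.82 in Cxcr5-Bcl6-, 8.94 and 9.2 in Cxcr5+Bcl6+ and 9.65 and 9.51 in Cxcr5+Bcl6- cells. The groups did not overlap, with 0.82 log2 in Cxcr5+Bcl6- against Cxcr5-Bcl6- cells (adjusted p = 0.000492) and -0.51 between the Cxcr5+ groups (adjusted p = 0.00455). Its rise of 0.31 log2 in Cxcr5+Bcl6+ against Cxcr5-Bcl6- cells passed narrowly (adjusted p = 0.0434) and was 0.18 without Cxcr5+Bcl6+ replicate 2 (adjusted p = 0.255), 0.25 without Cxcr5-Bcl6- replicate 1 (adjusted p = 0.176), 0.31 without either Cxcr5+Bcl6- array (adjusted p = 0.0538 each), 0.26 with each array centred (adjusted p = 0.0877) and 0.31 with the replicate block (adjusted p = 0.0537). The rise of Cdk1 in that comparison was 0.42 without Cxcr5+Bcl6+ replicate 2 (adjusted p = 0.0661) and 0.32 without Cxcr5-Bcl6- replicate 2 (adjusted p = 0.0625). The fall of Cdca3 between the Cxcr5+ groups was -0.20 without Cxcr5+Bcl6+ replicate 1 (adjusted p = 0.215), -0.31 and -0.26 without Cxcr5+Bcl6- replicate 1 and 2 (adjusted p = 0.166 and 0.251), and -0.22 with renewed quantile normalisation (adjusted p = 0.0809).

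The chromosome structure genes keep chromosomes compact and separable. Of 6, 5 were higher in Cxcr5+Bcl6- and 5 in Cxcr5+Bcl6+ than among Cxcr5-Bcl6- cells; between the Cxcr5+ groups 3 were lower in Cxcr5+Bcl6+ cells and 1 was higher. Mki67, the Ki-67 protein that coats mitotic chromosomes and marks cycling cells, had log2 levels of 10.42 and 10.38 in Cxcr5-Bcl6-, 11.46 and 11.59 in Cxcr5+Bcl6+ and 11.77 and 11.77 in Cxcr5+Bcl6- cells. The groups did not overlap. Mki67 had a log2 change (SE 0.0896) of 1.37 in Cxcr5+Bcl6- against Cxcr5-Bcl6- cells (adjusted p = 5.04e-06), of 1.12 in Cxcr5+Bcl6+ against Cxcr5-Bcl6- cells (adjusted p = 2.15e-06) and of -0.25 in Cxcr5+Bcl6+ against Cxcr5+Bcl6- cells (adjusted p = 0.0593). The last passed with each array centred on its median (-0.33, adjusted p = 0.0232) and not with renewed quantile normalisation. It was -0.32 without Cxcr5+Bcl6+ replicate 2. Top2a, topoisomerase II alpha, which untangles sister DNA, read 10.3 and 10.08 in Cxcr5-Bcl6-, 10.88 and 10.99 in Cxcr5+Bcl6+ and 11.51 and 11.5 in Cxcr5+Bcl6- cells. Top2a had a log2 change (SE 0.0993) of 1.32 in Cxcr5+Bcl6- against Cxcr5-Bcl6- cells (adjusted p = 1.03e-05), of 0.75 in Cxcr5+Bcl6+ against Cxcr5-Bcl6- cells (adjusted p = 0.000108) and of -0.57 in Cxcr5+Bcl6+ against Cxcr5+Bcl6- cells (adjusted p = 0.00136). A second Top2a probe set read 4.74 and 4.28, 4.54 and 4.47, and 4.88 and 4.44 in the same order of groups, below the 5.80 of the low-level reference. It passed in no comparison (log2 changes 0.14, -0.0045 and -0.15).

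Condensin compacts mitotic chromosomes, and its 4 members did not share one order of groups. Ncapg, a regulatory subunit of condensin I, read 8.66 and 8.28 in Cxcr5-Bcl6-, 9.31 and 9.55 in Cxcr5+Bcl6+ and 10.03 and 9.81 in Cxcr5+Bcl6- cells. It was in the common order (1.45, 0.97 and -0.49 log2, adjusted p = 0.0198 for the last), and the last was -0.37 without Cxcr5+Bcl6+ replicate 1 (adjusted p = 0.171) and -0.38 without Cxcr5+Bcl6- replicate 1 (adjusted p = 0.128). Smc2, an ATPase core subunit of both condensins, read 9.53 and 9.33 in Cxcr5-Bcl6-, 9.64 and 9.71 in Cxcr5+Bcl6+ and 10.12 and 10.11 in Cxcr5+Bcl6- cells. It was higher in Cxcr5+Bcl6- than among Cxcr5-Bcl6- cells (0.68 log2, adjusted p = 0.000799) and lower in Cxcr5+Bcl6+ than among Cxcr5+Bcl6- cells (-0.43, adjusted p = 0.00615), while its change in Cxcr5+Bcl6+ against Cxcr5-Bcl6- cells missed the threshold (0.25, adjusted p = 0.0658); that change was 0.35 without Cxcr5-Bcl6- replicate 1 (adjusted p = 0.0258) and 0.32 with renewed quantile normalisation (adjusted p = 0.0114).

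Smc4, the partner of Smc2 in the core, read 11.76 and 11.71 in Cxcr5-Bcl6-, 12.33 and 12.25 in Cxcr5+Bcl6+ and 11.86 and 11.96 in Cxcr5+Bcl6- cells. Its mean was highest in Cxcr5+Bcl6+ cells, which held for Ncapd2 alone among the other members, and its Cxcr5+Bcl6+ arrays lay above those of both other groups. Smc4 had a log2 change (SE 0.0891) of 0.17 in Cxcr5+Bcl6- against Cxcr5-Bcl6- cells (adjusted p = 0.3), of 0.56 in Cxcr5+Bcl6+ against Cxcr5-Bcl6- cells (adjusted p = 0.000437) and of 0.38 in Cxcr5+Bcl6+ against Cxcr5+Bcl6- cells (adjusted p = 0.00827). Smc4 was the 1 member higher in Cxcr5+Bcl6+ than among Cxcr5+Bcl6- cells, 1.30-fold, and without Cxcr5+Bcl6- replicate 1 that difference was 0.34 (adjusted p = 0.113). Ncapd2, another regulatory subunit of condensin I, read 9.41 and 9.48 in Cxcr5-Bcl6-, 10.57 and 10.71 in Cxcr5+Bcl6+ and 10.55 and 10.56 in Cxcr5+Bcl6- cells. It rose by 1.11 and 1.2 log2 from Cxcr5-Bcl6- cells, and its Cxcr5+Bcl6+ arrays were also above its Cxcr5+Bcl6- arrays, by a difference that did not pass (0.08, adjusted p = 0.541).

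**Figure D4:**
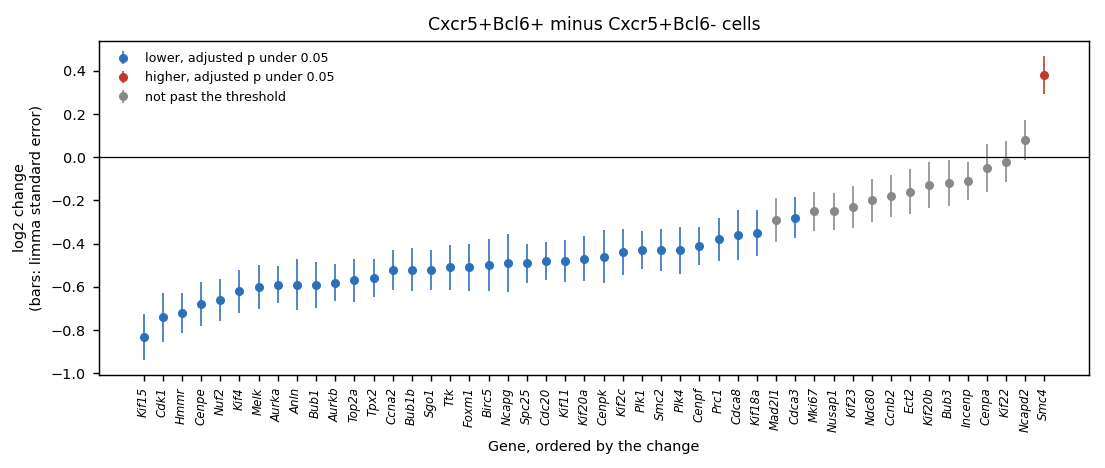
Log2 change in Cxcr5+Bcl6+ against Cxcr5+Bcl6- cells for each of the 48 genes, ordered by the change, with bars for limma's standard error over 2 arrays a group; colours show which genes passed an adjusted p of 0.05. Kif15 is at the low end (-0.83), 34 genes are lower past the threshold, and Smc4 is at the high end (0.38).

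The 7 roles had similar medians. In Cxcr5+Bcl6- against Cxcr5-Bcl6- cells they ran from 1.11 log2 for the kinases to 1.37 for spindle assembly and cytokinesis. In Cxcr5+Bcl6+ against Cxcr5-Bcl6- cells they ran from 0.64 for the kinases to 0.98 for spindle assembly and cytokinesis, and between the Cxcr5+ groups from -0.51 for the checkpoint genes to -0.34 for chromosome structure.

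A further 88 genes of mitosis that are no members were listed by function, and 86 were measured; Ccnb1 and Kifc1 are not analysed here. In Cxcr5+Bcl6- against Cxcr5-Bcl6- cells 57 of 86 were higher and 0 lower, with a median of 0.81 log2. The smallest p belonged to Nek2, a centrosome kinase (1.27 log2, adjusted p = 9.41e-06), Ccnf, cyclin F (1.14, adjusted p = 1.01e-05), Knl1, the kinetochore platform for Bub1 (1.35, adjusted p = 1.15e-05), and Racgap1, the partner of Kif23 in centralspindlin (1.26, adjusted p = 1.35e-05). From Cxcr5-Bcl6- to Cxcr5+Bcl6+ cells 55 were higher and 5 lower (median 0.43), and in Cxcr5+Bcl6+ against Cxcr5+Bcl6- cells 45 were lower and 3 higher (median -0.33). Of all probe sets, 5.22% were higher and 5.93% lower in the first of these 3 comparisons. The shares were 17.6% and 17.7% in the second and 13.4% and 13.0% in the third.

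The 2 further genes that fell most in Cxcr5+Bcl6+ cells were Polo-like kinases known as stress and immediate early response genes. Plk2 read 9.6 and 9.23 in Cxcr5-Bcl6-, 6.94 and 6.89 in Cxcr5+Bcl6+ and 9.15 and 9.06 in Cxcr5+Bcl6- cells. It changed by -2.50 log2 from Cxcr5-Bcl6- to Cxcr5+Bcl6+ cells (adjusted p = 3.78e-08) and by -2.19 from Cxcr5+Bcl6- to Cxcr5+Bcl6+ cells (adjusted p = 2.22e-07). Plk3 changed in the same 2 comparisons by -1.37 (adjusted p = 9.1e-07) and -1.13 (adjusted p = 7.91e-06). Also named in Cxcr5+Bcl6+ against Cxcr5-Bcl6- cells were Sgo2a, a shugoshin (1.0 log2, adjusted p = 1.47e-05), and Cdc14b, a phosphatase (0.89, adjusted p = 1.01e-05). Between the Cxcr5+ groups they were Trip13, which takes Mad2 out of the checkpoint complex (-0.91, adjusted p = 4.86e-05), and Cenpi, an inner kinetochore protein (-0.80, adjusted p = 0.000168).

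Genes of DNA replication, the step before mitosis, were listed for comparison, and 43 of 44 were measured. In Cxcr5+Bcl6- against Cxcr5-Bcl6- cells 20 were higher and 0 lower (median 0.34 log2), led by Tyms (0.89, adjusted p = 6.6e-05) and Cdc45 (0.77, adjusted p = 0.000177), then Rpa1 (0.90, adjusted p = 0.00019) and Rrm2 (1.09, adjusted p = 0.000211). From Cxcr5-Bcl6- to Cxcr5+Bcl6+ cells 4 were higher and 15 lower (median -0.04): Rpa1 (1.55, adjusted p = 5.28e-07) and Mcm6 (0.92, adjusted p = 2.24e-05) were higher, and Mcm2 (-0.86, adjusted p = 2.04e-05) and Pole2 (-1.20, adjusted p = 3.32e-05) lower. In Cxcr5+Bcl6+ against Cxcr5+Bcl6- cells 28 were lower and 2 higher (median -0.45), with Orc1 (-0.98, adjusted p = 1.13e-05), Tyms (-0.76, adjusted p = 7.49e-05), Gins1 (-0.83, adjusted p = 0.000151) and Mcm10 (-0.69, adjusted p = 0.000154) lower. So the mitosis and spindle members had medians of 1.18, 0.74 and -0.46 in these 3 comparisons and the replication genes 0.34, -0.04 and -0.45. Over all probe sets the shares higher and lower were 5.22% and 5.93%, 17.6% and 17.7%, and 13.4% and 13.0% in these comparisons. The difference between the lists was not tested.

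**Figure D5:**
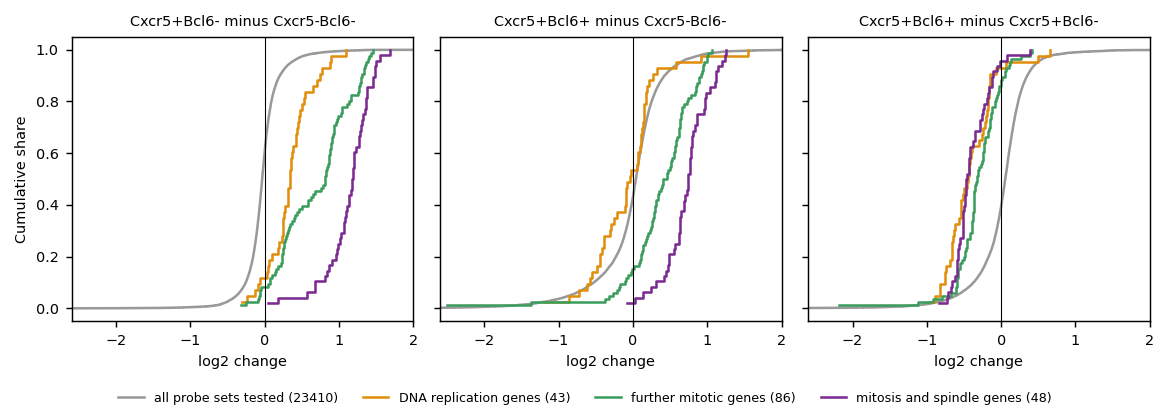
Cumulative share of log2 changes in the 3 comparisons for the 48 mitosis and spindle genes, 86 further mitotic genes, 43 DNA replication genes and all 23410 probe sets tested. In Cxcr5+Bcl6+ against Cxcr5-Bcl6- cells the mitosis and spindle genes (median 0.74) lie to the right of the replication genes (median -0.04), and between the Cxcr5+ groups both lie to the left of 0 (medians -0.46 and -0.45).

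Cxcr5 was 2.47 log2 higher in Cxcr5+Bcl6- and 3.52 higher in Cxcr5+Bcl6+ than among Cxcr5-Bcl6- cells (adjusted p = 2.07e-07 and 1.47e-09). Between the groups that share the Cxcr5+ gate it was 1.05 higher in Cxcr5+Bcl6+ cells (adjusted p = 2.15e-05). Bcl6 was 1.19 higher in Cxcr5+Bcl6+ than among Cxcr5-Bcl6- cells (adjusted p = 1.15e-06), 0.94 higher than among Cxcr5+Bcl6- cells (adjusted p = 1.4e-05) and 0.25 higher in Cxcr5+Bcl6- than among Cxcr5-Bcl6- cells without passing (adjusted p = 0.103). The summed level of 11 T cell markers lay between 15.89 and 16.04 log2 on all arrays, although single T cell markers differed. In Cxcr5+Bcl6+ against Cxcr5-Bcl6- cells 4 of 11 rose and 3 fell, and in Cxcr5+Bcl6- against Cxcr5-Bcl6- cells 1 rose and 0 fell. Cd4, the coreceptor used in the sort, was 0.79 log2 higher (adjusted p = 2.76e-05) and Trat1, a T cell receptor adaptor, changed by -0.80 (adjusted p = 2.68e-05) from Cxcr5-Bcl6- to Cxcr5+Bcl6+ cells, and Trat1 changed by -0.92 from Cxcr5+Bcl6- to Cxcr5+Bcl6+ cells (adjusted p = 1.95e-05). Genes listed as markers of other cells moved with the groups, and whether their transcripts came from other cells was not tested. Plasmacytoid dendritic cell markers (7 of 7 lower in both Cxcr5+ groups) summed to 12.88 to 12.97 in Cxcr5-Bcl6-, 10.80 to 10.87 in Cxcr5+Bcl6+ and 11.33 to 11.34 in Cxcr5+Bcl6- cells. Myeloid and conventional dendritic cell markers (in both Cxcr5+ groups 8 of 13 lower, 4 not past the threshold and 1, Lyz2, higher by 1.1 log2 in Cxcr5+Bcl6+ cells and by 1.11 log2 among Cxcr5+Bcl6- cells) summed to 12.98 to 12.99, 11.26 to 11.27 and 11.44 to 11.47. CD8 T cell markers (4 of 4 lower in both) summed to 11.45 to 11.52, 9.93 to 10.01 and 10.88 to 10.94. From Cxcr5+Bcl6- to Cxcr5+Bcl6+ cells Crtam changed by -1.99 log2 and Eomes by -0.48, while Cd8a (-0.13) and Cd8b1 (-0.15) did not pass. In the same comparison 6 of 7 plasmacytoid dendritic cell markers were lower and 1, Spib, was higher (0.76 log2). Of 13 myeloid and conventional dendritic cell markers 4 were lower there, 0 were higher and 9 did not pass. The 3 erythroid markers measured (against Cxcr5-Bcl6- cells, Cxcr5+Bcl6+ were lower for 2 and Cxcr5+Bcl6- for 1) summed to 11.22 to 11.33, 9.81 to 9.94 and 10.93 to 11.01. Most of that sum was Tfrc, which read 11.05 and 10.89, 9.06 and 9.36, and 10.76 and 10.64 in the same order of groups. The globin genes Hbb-b1 and Hba-a1 are not analysed here.

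B cell markers were higher in the Cxcr5+ groups (8 of 9 in Cxcr5+Bcl6+ and 5 of 9 in Cxcr5+Bcl6- against Cxcr5-Bcl6- cells) and summed to 10.51 to 10.55 in Cxcr5-Bcl6-, 11.82 to 11.89 in Cxcr5+Bcl6+ and 11.25 to 11.31 in Cxcr5+Bcl6- cells. Between the Cxcr5+ groups 5 of 9 were higher in Cxcr5+Bcl6+ cells, 0 were lower and 4 did not pass. Of 7 measured germinal centre B or plasma cell markers, 1 was higher and 4 lower in Cxcr5+Bcl6+ than among Cxcr5-Bcl6- cells. The higher one was S1pr2 (0.74 log2). The lower ones were Prdm1 (-2.12), Jchain (-1.08), Xbp1 (-1.02) and Rgs13 (-0.4), and Rgs13 was at or under the low-level reference on all arrays. The 7 summed to 13.17 to 13.20, 12.41 to 12.55 and 13.06 to 13.13. The largest part of that sum was Xbp1, which read 12.59 and 12.57, 11.65 and 11.47, and 12.42 and 12.33 in the same order of groups. Whether these transcripts came from B, plasma or T cells was not tested. The 4 NK cell markers (in Cxcr5+Bcl6+ against Cxcr5-Bcl6- cells 1 higher and 1 lower, in Cxcr5+Bcl6- against Cxcr5-Bcl6- cells 1 higher and 0 lower) summed to 8.43 to 8.71, 8.66 to 8.71 and 8.82 to 8.94. For all these marker counts, the shares of all probe sets higher and lower were 17.6% and 17.7% in Cxcr5+Bcl6+ against Cxcr5-Bcl6- cells. They were 5.22% and 5.93% in Cxcr5+Bcl6- against Cxcr5-Bcl6- cells and 13.4% and 13.0% in Cxcr5+Bcl6+ against Cxcr5+Bcl6- cells. The part of these other markers in the members' differences was not tested.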

How the data were processed

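Gene expression was measured in 6 samples on Affymetrix arrays. The deposited values are log2 levels, which the authors made with RMA in Affymetrix Expression Console after scanning with GCOS 1.1, per the submitters' processing notes; no source used here gives a genome build. RMA corrects the background, equalises the distributions of the arrays and summarises probes, which compresses differences at low levels. The deposited levels were not fully equal in distribution: over all rows the interquartile range ran from 2.86 to 3.15 between arrays. The table had 35556 rows. The platform annotation gave 1 symbol to 21789 probe sets and several to 1621, and 12146 rows are unnamed here. Symbols were updated through Entrez for 21698. The fit, by limma 3.58.1 (R 4.3.3), covered the 23410 probe sets with a symbol, with a mean per group over all 6 arrays and eBayes (residual degrees of freedom 3, prior 8.25). Both directions were tested, with Benjamini-Hochberg adjustment. A gene with several probe sets is represented by that with the highest mean. The code was tested on simulated Cxcr5+Bcl6- and Cxcr5-Bcl6- data with 200 of 23410 probe sets changed per run. It recovered 0% of 1.2-fold, 42% of 1.5-fold and 85.6% of 2-fold changes. Each real comparison called more than 200 probe sets, so recovery there can differ. A small difference that did not pass is therefore not shown to be absent. Only 2 arrays a group limit the precision.

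Every member is described by role. Values per array are given for the 2 smallest p of each role and comparison, for members lower past the threshold and for members whose probe sets disagree, and for some others. Of other genes, the sort genes and, from the further mitotic genes and the replication genes, the 4 with the smallest p of each comparison are named where they passed. Cell type marker lists are given by counts and summed levels. Cd4, Trat1, Lyz2, Rgs13, Crtam, Eomes, Cd8a, Cd8b1, Spib, Tfrc, S1pr2, Prdm1, Jchain and Xbp1 were named after their values were seen. The members, roles, lists and promoter words were chosen with earlier results of these data known. Alternatives changed the variance model, scaling, filter, rows tested, probe set rule, arrays fitted, threshold, replicate block and arrays left out. The replicate numbers were not taken to pair samples: same-numbered arrays' deviations from their group means correlated at -0.234, -0.046 and 0.258 over probe sets in the 3 pairs of groups.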

Additional observations from a re-analysis of the deposited data

How the results depend on the processing

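The count of members higher than in Cxcr5-Bcl6- cells ran from 45 to 46 for Cxcr5+Bcl6- and from 36 to 45 for Cxcr5+Bcl6+ cells over all alternatives, and 0 were lower in any. Between the Cxcr5+ groups 10 members were lower and 0 higher when a change of at least 1.5-fold was also required; the other alternatives gave 26 to 38 lower, and leaving out 1 array gave 24 to 36 lower and 0 to 1 higher. That fold requirement left 3470 of 8255 probe sets called (Cxcr5+Bcl6+ minus Cxcr5-Bcl6-), 822 of 2610 (Cxcr5+Bcl6- minus Cxcr5-Bcl6-) and 1952 of 6185 (Cxcr5+Bcl6+ minus Cxcr5+Bcl6-). Testing all rows called 1579 between Cxcr5+Bcl6- and Cxcr5-Bcl6- cells. Leaving out 1 array gave 1317 (without Cxcr5+Bcl6- replicate 1) to 2624 there and 3617 (the same array) to 6987 between the Cxcr5+ groups. The replicate block gave 46 and 43 members higher than in Cxcr5-Bcl6- cells, and 34 lower and 1 higher between the Cxcr5+ groups; apart from Foxm1 and Kif18a, and Mad2l1, which passed with it, it changed no member's call. The numbers give no pairing by design. Signs turned only for changes that had not passed. With arrays centred, Kif15 was -0.01 from Cxcr5-Bcl6- to Cxcr5+Bcl6+ cells; with renewed quantile normalisation Bub3 was 0.02 there, and Cenpa was 0.01 and Kif22 0.04 between the Cxcr5+ groups. Leaving out 1 array gave, from Cxcr5-Bcl6- to Cxcr5+Bcl6+ cells, -0.17 to 0.0026 for Bub3 and -0.08 to 0.14 for Kif15 and, from Cxcr5-Bcl6- to Cxcr5+Bcl6- cells, -0.09 to 0.17 for Bub3. Between the Cxcr5+ groups it gave -0.25 to 0.0012 for Bub3, -0.11 to 0.0022 for Cenpa, -0.28 to 0.02 for Kif20b and -0.07 to 0.02 for Kif22. The cause was not tested. Cenpk had no value when levels under the median were left out.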
